A study of Homo sapiens with 6 samples.

Results

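Interferon-stimulated genes (ISGs) were examined in HEC-1-A cells after 24 h with SMIP34. The set holds 40 of the 23228 genes in the count tables, and its members were picked by gene symbol as well-known ISGs. The list was drawn up after the SMIP34 and control libraries had been compared, so the values of its members are a description and carry no test. Of the 40 members, 34 had enough reads to enter the fit across all genes, and 22 of these had a higher and 12 a lower fitted level in SMIP34-treated cells, where 49.5% of all genes tested had a higher one. The higher members were led by OASL, RSAD2, IFIT2, DDX60 and IFIT1, and the lowest fold changes were those of IFITM2 and IFITM1.

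HEC-1-A is an established line of human endometrial adenocarcinoma, and SMIP34 is a small molecule inhibitor of the coregulator PELP1. The SMIP34 group was 3 libraries from cells given 20 µM SMIP34 for 24 h, and the control group was 3 libraries from cells whose labels name only McCoy's 5A medium with fetal bovine serum, which the study describes as vehicle treated. The labels name no engineered allele in either group, and 1 line, 1 dose and 1 time were measured. Nothing in the labels says that replicates were separate cultures, so the spread between them may be technical. Counts on genes came to 19562711 to 22014835 per library, and a count of 0 allows up to 0.137 to 0.155 CPM by the floor of 3 counts, which covers counting error only. CPM are a gene's counts scaled by edgeR's cpm function to a common library total after TMM adjustment of each library's total. Control replicate 1 had a count for 16881 genes, against 15965 to 16100 in the other libraries. Summed epithelial markers (EPCAM, CDH1, KRT8, KRT18, KRT19 and PAX8) lay at 3211 to 3311 CPM in control and 3049 to 3059 CPM in SMIP34-treated libraries, so the labelled epithelial type was present in each.

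Interferons are secreted proteins that cells release on sensing foreign nucleic acid. They bind surface receptors, and the kinases JAK1 and TYK2 then phosphorylate STAT factors, which together with IRF9 bind the interferon-stimulated response element (ISRE) in the promoters of ISGs. The products of these genes bind viral RNA, block viral entry, attach the modifier ISG15 to proteins or act as further sensors of RNA, and some ISGs can also be switched on by IRF factors in the absence of interferon.

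As a whole, the set took a larger share of the reads in treated cells, and 4 members made up most of the difference. The summed level of the 40 members was 894, 890 and 887 CPM in control replicates 1 to 3 and 1077, 1102 and 1103 CPM in SMIP34 replicates 1 to 3. The groups did not overlap, and the means of 890.0 ± 3.54 and 1094 ± 14.3 CPM (SD, n = 3 each) stood at a ratio of 1.23. IFIT1, IFIT2, IFIT3 and ISG15 gave 60.3% of the added CPM. OAS3 and IFITM3 were more abundant than these in control, at 126 and 103 CPM, with log2 fold changes of 0.16 and -0.10. Without IFIT2 and RSAD2 the sums were 828 ± 3.08 and 967 ± 16.2 CPM (SD, n = 3 each), a ratio of 1.17. The members' reads were 0.0884 ± 0.00044% of all counts in control and 0.110 ± 0.00145% in treated libraries (SD, n = 3 each).

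The members did not all differ in the same direction. Their median log2 ratio, SMIP34 to control, was 0.13 (the log2 fold change of the fit) with quartiles of -0.05 and 0.39, beside a median of -0.0022 and quartiles of -0.12 and 0.12 over the 13408 genes tested. At an adjusted p under 0.05, 15 members were called higher and 5 lower, where 17.4% and 17.2% of all genes were. With an absolute log2 fold change above 0.5 as well, 7 members were called higher (OASL, RSAD2, IFIT2, DDX60, IFIT1, HERC5 and ISG15), beside 1.44% of all genes, and 2 lower (IFITM1 and IFITM2), beside 1.87%, or 3.31% of all genes in both directions. Since the members were chosen with this contrast known, nothing is read from these counts. In 17 members every treated library lay above every control library, and in 5 every treated library lay below, where 22.6% and 21.9% of all genes did so. Without IFIT2 and RSAD2 the median was 0.10, with 20 members above and 12 below 0, 13 called higher and 5 lower, and 5 and 2 past both limits. Medians over the members of the log2 level relative to the control mean were 0.019, -0.012 and -0.0014 in the control libraries and 0.14, 0.11 and 0.14 in the treated ones.

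**Figure D1:**
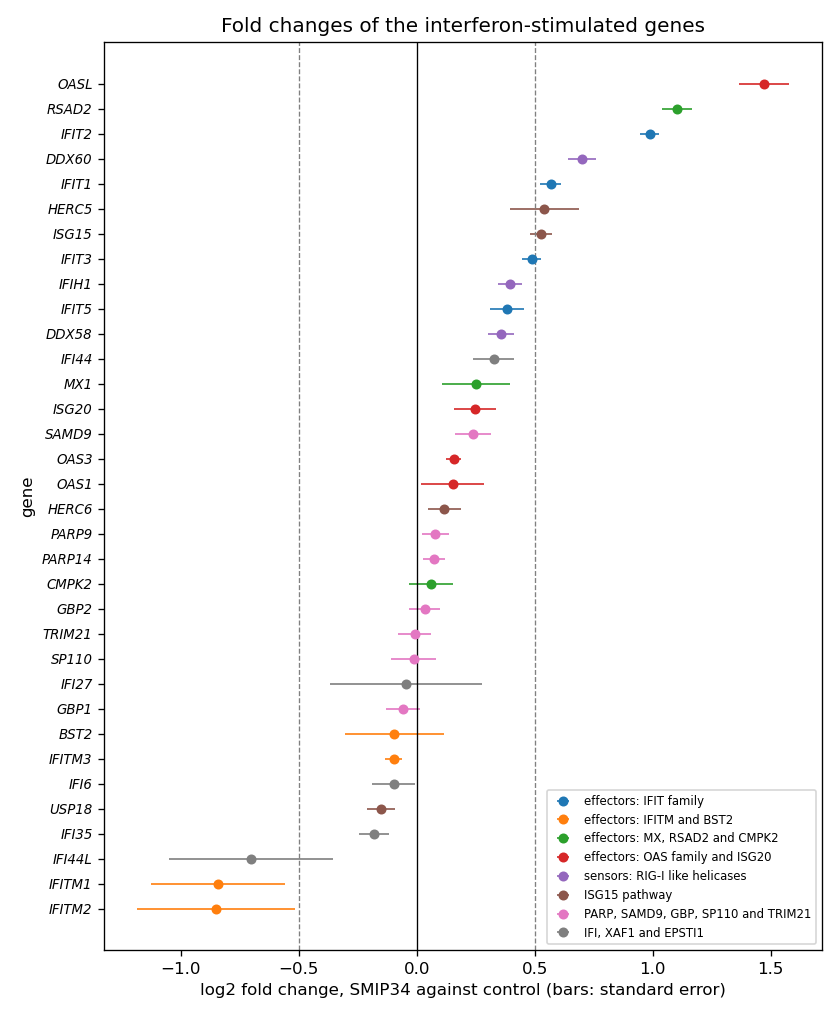
Log2 fold change of each of the 34 members that entered the fit, SMIP34 against control, with its standard error, colored by role group and with dashed lines at 0.5 in each direction. The values run from 1.47 for OASL to -0.85 for IFITM2, and IFI44L, IFITM2, IFI27 and IFITM1, the members of the lowest CPM, have the widest bars.

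**Figure D2:**
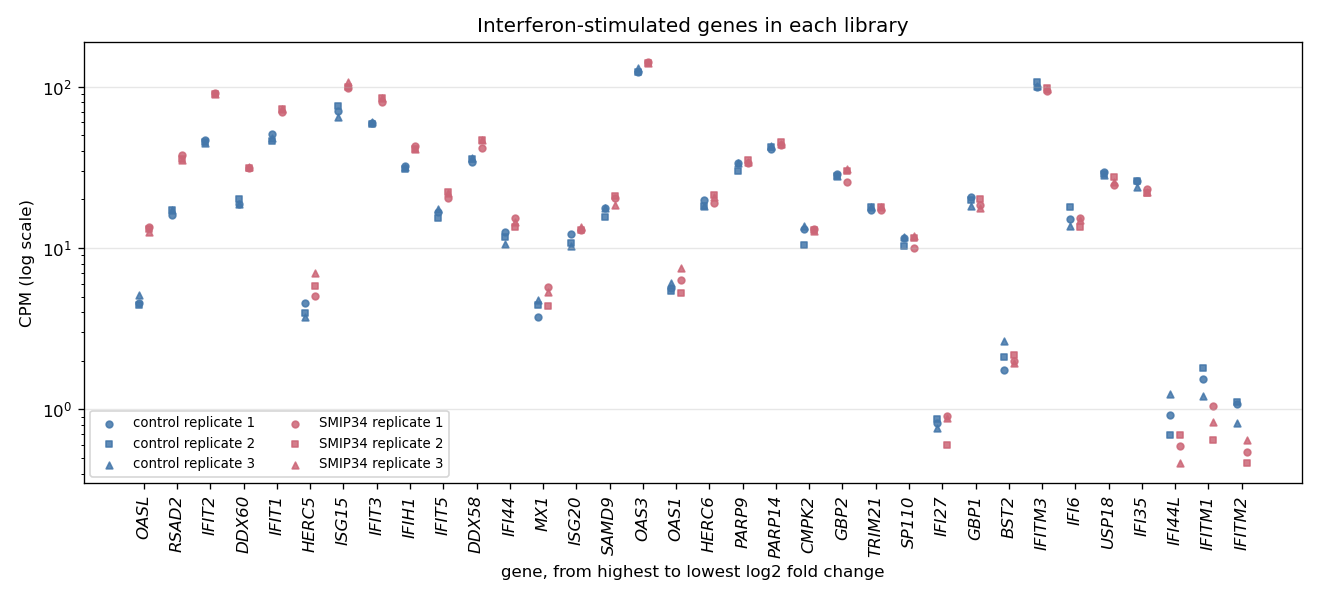
CPM (log axis) of each of the 34 tested members in each of the 6 libraries, with genes ordered from the highest to the lowest log2 fold change, control libraries in blue and SMIP34 libraries in red. The red points of OASL, RSAD2 and IFIT2 lie clear above the blue ones, and IFI27, IFI44L, IFITM1 and IFITM2 lie near or under 1 CPM.

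The promoters of the members are shown because most carry the ISRE while their fold changes differ. RefSeq windows of build GRCh38.p14, from 250 bases before to 50 after a gene's start, were matched for 33 of the 40 members. IFIT2, IFITM2, MX2, OAS2, OASL, USP18 and GBP2 had no match. The ISRE core, GAAA, then 2 bases of any kind, then GAAA, on either strand, stood in a window of 24 of the 33 members (72.7%) and of 4.38% of the 27305 genes with a window. A GAS-type match, TTCNNNGAA, was in 10 members (30.3%) and 9.38% of genes. It can share bases with an ISRE. NF-kB letters, GGGA, 2 bases of any kind and TTCC, were in 3 members (9.09%) and 1.97% of genes, and AP-1 letters, TGANTCA, in 4 members (12.1%) and 9.37% of genes. A core with 1 base in the gap, GAAANGAAA, was added after the windows had been seen and was in 14 members (42.4%) and 3.87% of genes. The windows below show 4 members past both limits (IFIT1, ISG15, DDX60 and RSAD2), 2 that hold an ISRE and were not higher (IFITM3 and IFI6), and CMPK2, which neighbours RSAD2 and holds no ISRE core. They lie at chr10:89392373-89392672 (plus strand), chr1:1013247-1013546 (plus), chr4:168318703-168319002 (minus), chr2:6877527-6877826 (plus), chr11:320811-321110 (minus), chr1:27672143-27672442 (minus) and chr2:6865770-6866069 (minus), in the order printed. Each is read 5′ to 3′ on the gene's strand, and capitals mark the ISRE core, on either strand.
IFIT1: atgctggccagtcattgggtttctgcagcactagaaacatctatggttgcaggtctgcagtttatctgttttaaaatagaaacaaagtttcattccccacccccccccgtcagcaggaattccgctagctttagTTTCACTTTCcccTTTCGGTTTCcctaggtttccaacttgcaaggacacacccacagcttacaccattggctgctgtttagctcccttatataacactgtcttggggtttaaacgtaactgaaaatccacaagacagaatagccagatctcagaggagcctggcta
ISG15: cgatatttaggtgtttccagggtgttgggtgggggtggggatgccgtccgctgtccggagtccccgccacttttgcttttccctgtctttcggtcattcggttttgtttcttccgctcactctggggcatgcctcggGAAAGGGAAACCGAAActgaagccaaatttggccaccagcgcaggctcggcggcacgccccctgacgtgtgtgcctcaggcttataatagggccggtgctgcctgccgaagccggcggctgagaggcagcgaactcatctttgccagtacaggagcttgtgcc
DDX60: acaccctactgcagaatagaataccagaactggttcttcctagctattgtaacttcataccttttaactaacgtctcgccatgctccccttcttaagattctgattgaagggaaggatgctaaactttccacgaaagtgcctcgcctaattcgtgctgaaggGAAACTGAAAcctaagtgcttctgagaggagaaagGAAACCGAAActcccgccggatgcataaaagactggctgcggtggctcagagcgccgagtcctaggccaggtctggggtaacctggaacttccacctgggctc
RSAD2: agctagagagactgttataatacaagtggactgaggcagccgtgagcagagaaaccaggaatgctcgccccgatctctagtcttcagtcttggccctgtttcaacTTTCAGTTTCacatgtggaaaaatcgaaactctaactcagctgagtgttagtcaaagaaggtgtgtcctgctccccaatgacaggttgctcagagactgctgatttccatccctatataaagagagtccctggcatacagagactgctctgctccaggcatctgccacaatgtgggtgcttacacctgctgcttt
IFITM3: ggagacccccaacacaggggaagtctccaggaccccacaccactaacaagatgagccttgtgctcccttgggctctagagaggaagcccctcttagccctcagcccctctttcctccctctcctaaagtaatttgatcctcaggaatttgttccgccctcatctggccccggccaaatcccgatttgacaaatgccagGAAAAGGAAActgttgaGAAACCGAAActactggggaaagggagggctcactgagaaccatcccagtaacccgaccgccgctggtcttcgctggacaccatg
IFI6: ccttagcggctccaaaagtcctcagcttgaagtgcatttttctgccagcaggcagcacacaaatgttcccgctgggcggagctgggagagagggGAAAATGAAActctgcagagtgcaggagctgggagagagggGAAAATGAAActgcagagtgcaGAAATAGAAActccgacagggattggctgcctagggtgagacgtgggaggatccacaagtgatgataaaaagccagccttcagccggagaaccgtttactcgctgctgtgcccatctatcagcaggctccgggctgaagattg
CMPK2: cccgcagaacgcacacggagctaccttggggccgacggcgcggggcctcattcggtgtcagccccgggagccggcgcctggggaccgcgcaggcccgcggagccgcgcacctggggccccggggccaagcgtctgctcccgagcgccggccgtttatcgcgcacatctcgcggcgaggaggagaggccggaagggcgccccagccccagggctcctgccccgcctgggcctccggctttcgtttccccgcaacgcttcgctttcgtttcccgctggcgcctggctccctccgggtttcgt

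IFIT1 holds its cores 116 and 103 bases before the start. In ISG15 the cores at 113 and 107 bases share letters and print as 1 capital run. DDX60 has cores at 88 and 53 bases, RSAD2 has 1 at 145 bases in the window printed, IFITM3 has them at 52 and 35 bases and IFI6 at 156, 115 and 93 bases. A second RSAD2 window, chr2:6865635-6865934, overlaps the CMPK2 window printed and holds no ISRE core but 4 matches to GAAANGAAA, and the CMPK2 window holds 2 of these. The 23 tested members with a core had a median log2 fold change of 0.24, with a range of -0.84 to 1.10. The 6 tested members with a window and no core (DDX58, OAS1, HERC6, CMPK2, SP110 and IFI35) had a median of 0.09 and a range of -0.18 to 0.36. Of these 6, all but HERC6 held GAAANGAAA in a window, and so did some members with a core, such as IFIT3 and OAS3. The split is therefore by the gap in the core and does not part members with either form from members without. The ranges of members with and without a core overlap, and no test was made on this split. A match is a description of the letters in the window and not a measured site.

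The IFIT family, cytosolic proteins that bind viral RNA and impede its translation, was higher in treated cells throughout. IFIT2 (chr10:91061706-91069033, hg19) stood at 46.8, 45.4 and 44.5 CPM in control and 90.9, 90.0 and 90.0 CPM in treated libraries. The treated libraries all lay above the control libraries, with means of 45.6 ± 1.19 and 90.3 ± 0.548 CPM (SD, n = 3 each) and a log2 ratio of 0.99 (standard error 0.04). IFIT1 (chr10:91152322-91163744) was at 51.0, 46.1 and 48.4 CPM in control and 69.5, 73.2 and 72.8 CPM in treated libraries, without overlap, and its log2 fold change was 0.57 (standard error 0.04). IFIT3 (chr10:91087602-91100725), whose protein partners IFIT1, was at 59.6, 58.8 and 60.5 CPM in control and 80.7, 85.4 and 84.5 CPM in treated libraries. The groups were apart, and the log2 fold change of 0.49 (standard error 0.04) lay just under the 0.5 limit. IFIT5 was at 16.5 ± 1.11 and 21.5 ± 0.834 CPM (SD, n = 3 each), 0.38 on the log2 scale.

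RSAD2 was higher in treated cells, whereas its close neighbour CMPK2 differed by less than the spread between replicates. RSAD2 (chr2:7017796-7038363, hg19), which codes for viperin, an enzyme that makes an antiviral ribonucleotide, was at 15.9, 17.2 and 17.3 CPM in control and 37.8, 35.4 and 35.3 CPM in treated libraries. The groups lay far apart, with means of 16.8 ± 0.778 and 36.2 ± 1.39 CPM (SD, n = 3 each) and a log2 ratio of 1.10 (standard error 0.06). CMPK2, a mitochondrial nucleotide kinase, was at 12.4 ± 1.72 and 12.9 ± 0.138 CPM, 0.06 on the log2 scale with a standard error of 0.09, and its groups overlapped. MX1, a dynamin-like GTPase that blocks viral nucleocapsids, was at 4.33 ± 0.514 and 5.17 ± 0.696 CPM with overlapping groups. MX2 had a count of 0 in all 6 libraries.

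In the oligoadenylate synthetase (OAS) family, the active enzymes of which switch on RNase L, the catalytically inactive OASL differed most. OASL (chr12:121458095-121476780, hg19) was at 4.58, 4.41 and 5.15 CPM in control and 13.6, 13.1 and 12.6 CPM in treated libraries, which did not overlap. The means were 4.72 ± 0.384 and 13.1 ± 0.481 CPM (SD, n = 3 each), or a log2 ratio of 1.47 (standard error 0.11) and the largest of the 34 members. OAS3 was the most abundant family member by CPM, at 126 ± 4.42 in control and 140.5 ± 1.06 in treated libraries, 0.16 on the log2 scale. OAS1 was at 5.72 ± 0.321 and 6.35 ± 1.16 CPM with overlapping groups, and OAS2 gave only 14 counts over all libraries. ISG20, an exonuclease of RNA, was at 11.1 ± 1.01 and 13.1 ± 0.281 CPM without overlap.

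The members of the set that code for RNA helicases sensing viral RNA were all higher. DDX60 (chr4:169137442-169239958, hg19), an RNA helicase, was at 18.9, 20.2 and 18.7 CPM in control and 31.3, 31.1 and 31.6 CPM in treated libraries. The groups were apart, with a log2 ratio of 0.70 (standard error 0.06). IFIH1 (MDA5) was at 31.6 ± 0.528 and 41.6 ± 0.901 CPM and DDX58 (RIG-I) at 35.1 ± 0.985 and 45.0 ± 2.98 CPM (SD, n = 3 each), with log2 fold changes of 0.40 and 0.36 and no overlap in either.

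In the ISG15 pathway the modifier and a ligase were higher, while the enzyme that removes the modifier was lower. ISG15 (chr1:948847-949919, hg19), the ubiquitin-like modifier, was at 70.7, 75.9 and 64.6 CPM in control and 97.7, 99.9 and 106.7 CPM in treated libraries. The groups were apart, and its log2 fold change was 0.53 (standard error 0.05). HERC5 (chr4:89378268-89427314), the main ligase for ISG15, was at 4.53, 3.95 and 3.75 CPM in control and 5.01, 5.78 and 6.98 CPM in treated libraries, also apart, with a log2 ratio of 0.54 (standard error 0.15). Without control replicate 3 or without SMIP34 replicate 3, HERC5 and ISG15 were no longer past both limits, and 5 members then were past them on the higher side. Without each library in turn, 180 to 209 of all genes were past them on that side. HERC6 was at 18.7 ± 0.957 and 20.3 ± 1.14 CPM, with overlap. USP18, the protease that takes ISG15 off proteins and a brake on interferon receptor signalling, was at 28.8 ± 0.769 and 25.9 ± 1.39 CPM (SD, n = 3 each), or -0.15 on the log2 scale with a standard error of 0.06, and its groups did not overlap. Counts of USP18 were not whole in the 3 treated libraries and whole in the 3 control libraries, where a part count stands for a read divided between places or genes. USP18 was among the 5 members that edgeR called lower at the adjusted p, where 17.2% of all genes were, and DESeq2 did not call it. UBE2L6, the conjugating enzyme of the pathway, gave 8 counts over all libraries.

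**Figure D3:**
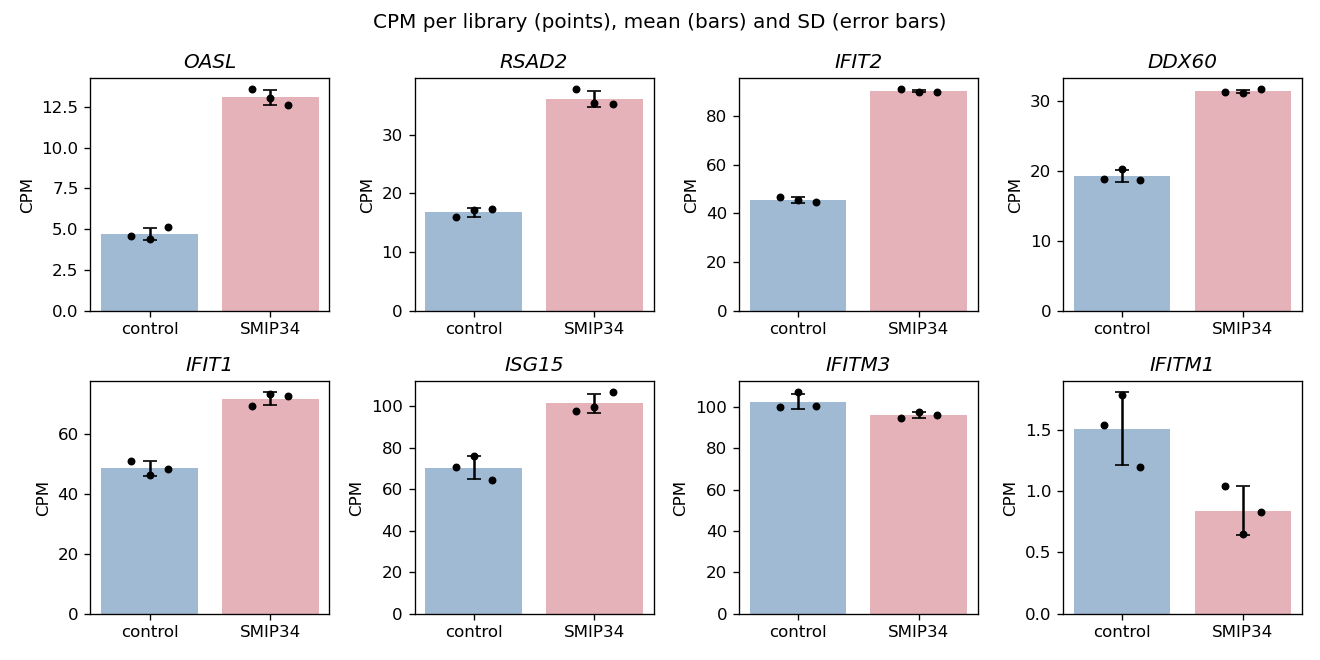
CPM of 8 members in each library (points), with the group mean (bars) and SD (error bars, n = 3 each), drawn from 0. OASL, RSAD2, IFIT2, DDX60, IFIT1 and ISG15 lie higher in every SMIP34 library, and IFITM3 and IFITM1 lower.

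The IFITM proteins, which hinder fusion of viruses with endosomal membranes, went the other way. IFITM3 (chr11:319673-320914, hg19) was at 100.2, 107.2 and 100.8 CPM in control and 94.7, 97.7 and 96.1 CPM in treated libraries. The groups did not overlap, and the log2 fold change was -0.10 (standard error 0.04), but it was 0.02 after correction for gene length. IFITM1 (chr11:313991-315272) was at 1.55, 1.79 and 1.20 CPM in control and 1.05, 0.647 and 0.832 CPM in treated libraries, a log2 ratio of -0.84 (standard error 0.28). IFITM2 (chr11:308107-309410) was at 1.08, 1.10 and 0.818 CPM in control and 0.547, 0.462 and 0.647 CPM in treated libraries, a log2 ratio of -0.85 (standard error 0.34). Both stood without overlap, on 149 and 98 counts over all libraries, and IFITM1, IFITM2 and IFITM3 are close copies of each other whose shared reads are uncertain. BST2, which tethers new virions to the cell surface, was at 2.17 ± 0.45 and 2.04 ± 0.12 CPM, with overlap. Without 1 library in turn, between 0 and 2 of the members were past both limits on the lower side, where 207 to 239 of all genes were.

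The other members went both ways. Among the 7 tested members of the PARP, SAMD9, GBP, SP110 and TRIM21 group the log2 fold changes lay between -0.06 and 0.24. The highest was that of SAMD9, an RNA-binding antiviral protein, at 17.0 ± 1.31 and 20.0 ± 1.26 CPM (SD, n = 3 each). IFI35, an interferon-induced leucine zipper protein, was at 26.1, 26.2 and 23.9 CPM in control and 23.2, 21.8 and 22.1 CPM in treated libraries. Its groups were apart and its log2 fold change was -0.18 (standard error 0.06). IFI44 was at 11.6 ± 0.992 and 14.5 ± 0.931 CPM, 0.33 on the log2 scale, without overlap, while IFI44L was at 0.956 ± 0.282 and 0.583 ± 0.116 CPM (SD, n = 3 each), -0.70 on the log2 scale with a standard error of 0.35, with 97 counts in all and overlapping groups. IFI6 and IFI27, small hydrophobic proteins, overlapped between groups, at 15.6 ± 2.21 and 14.6 ± 0.946 CPM and at 0.823 ± 0.052 and 0.797 ± 0.17 CPM (SD, n = 3 each). XAF1, SAMD9L and EPSTI1 did not enter the fit, with 1, 12 and 44 counts over all libraries.

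Per kilobase of exon, the levels of the members in control cells spanned a wide range. The highest was IFITM3 at 154 CPM per kb, then ISG15 at 106, IFIT1 at 26.1, IFIT3 at 22.2 and IFI35 at 20.3. OASL, which had the largest fold change, ranked the 26th of the 34 tested members at 2.59 CPM per kb, and RSAD2 the 19th at 4.79. The treated level of OASL was 7.19 CPM per kb.

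Several members are near each other in the genome, and 11 pairs of tested members that follow each other in the set's order along a chromosome, under 200000 bases apart, were set side by side. RSAD2 and CMPK2 are transcribed away from each other across 11859 bases and differed by 1.04 in log2 fold change. IFI44 and IFI44L, 3646 bases apart, differed by 1.03, and IFI44L had 97 counts in all. IFIT2 lay 0.50 above IFIT3 at 18568 bases, whereas OAS1 and OAS3 at 18536 bases were within 0.01 of each other, and so were PARP9 and PARP14 at 116148 bases. IFITM2 and IFITM1, 4580 bases apart, were also within 0.01 of each other, at -0.85 and -0.84. Both have few counts and are close copies whose shared reads are uncertain.

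**Figure D4:**
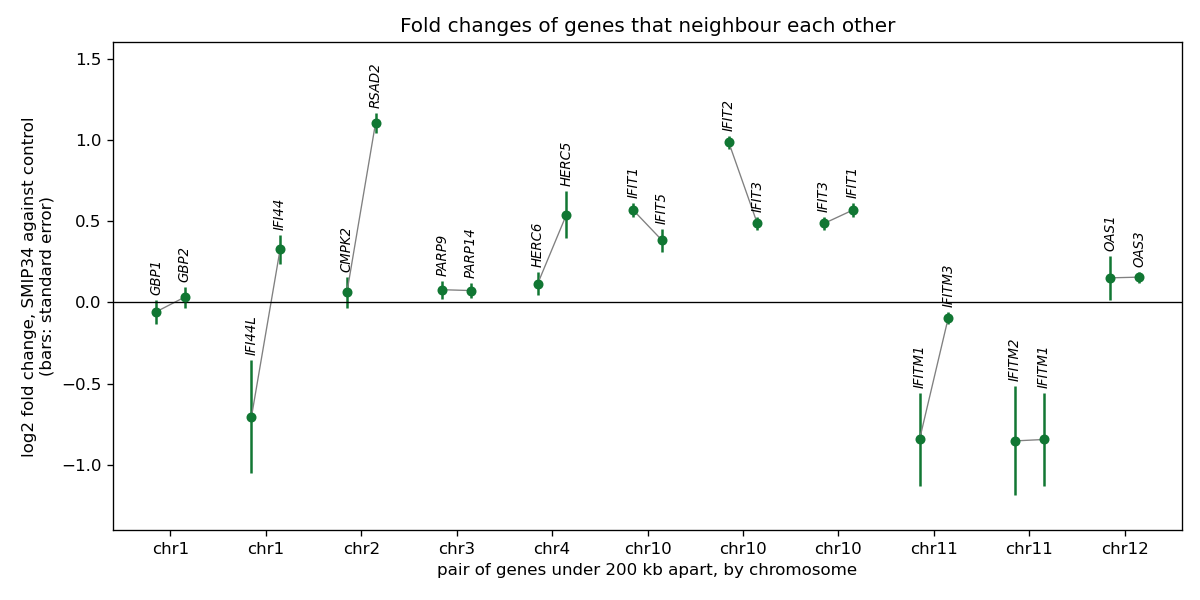
Log2 fold change of consecutive members along a chromosome that lie under 200000 bases apart, 1 pair per position, with the standard error of each gene. RSAD2 stands 1.04 above CMPK2, and the pair OAS1 and OAS3 lies level.

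The other genes of the interferon pathway were taken from 8 lists of 130 genes, of which 90 were tested. By edgeR's quasi-likelihood test with Benjamini-Hochberg adjustment over all genes, 25 rose and 12 fell at an adjusted p under 0.05, where 17.4% of all genes rose and 17.2% fell. These shares are the background of each list's count too. Like the members, the lists were chosen with earlier results of these data known, so nothing is read from the counts. The median over the 90 was 0.07 on the log2 scale. Of the 21 interferon ligands, 16 had a count of 0 in all libraries. IFNB1 gave 3 counts, IFNE 18, IL29 13, IL28A 7 and IL28B 8 over all 6 libraries, so no ligand was tested and a difference was not detectable at this depth. Of the 6 receptor genes, 2 rose. IL28RA, the receptor chain for lambda interferons, rose, at 9.89 ± 0.561 in control and 13.1 ± 0.616 CPM in treated libraries (SD, n = 3 each), or a log2 ratio of 0.41 (standard error 0.09, adjusted p = 0.000826 in edgeR). IFNGR2 rose by 0.11 on the log2 scale (adjusted p = 0.0144 in edgeR), a call lost without SMIP34 replicate 1 (0.0715). IFNAR1 was at 0.06, IFNAR2 at 0.15, IFNGR1 at -0.01 and IL10RB at -0.01 in log2 fold change, and edgeR's adjusted p was 0.21, 0.055, 0.928 and 0.883.

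Of the JAK and STAT signalling genes, 3 of 7 rose. JAK1, the kinase shared by interferon receptors, rose, at 3.43 ± 0.263 in control and 6.72 ± 0.21 CPM in treated libraries (SD, n = 3 each), or a log2 ratio of 0.96 (standard error 0.13, adjusted p = 3.14e-06 in edgeR). STAT2 was at 0.11 and IRF9 at -0.20 in log2 fold change (adjusted p = 0.142 and 0.114 in edgeR). Among the other IRF factors 5 of 6 rose. IRF1, a direct activator of many ISGs, rose, at 24.3 ± 0.775 in control and 35.3 ± 1.76 CPM in treated libraries (SD, n = 3 each), 0.54 on the log2 scale with a standard error of 0.06 (adjusted p = 4.99e-08 in edgeR). IRF7, the amplifier of the interferon response, rose, at 2.72 ± 0.289 in control and 3.80 ± 0.259 CPM in treated libraries (SD, n = 3 each), 0.49 on the log2 scale (adjusted p = 0.0239 in edgeR), a call lost without control replicate 2 (0.111) or SMIP34 replicate 1 (0.0939) and in DESeq2 (0.0775).

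**Figure D5:**
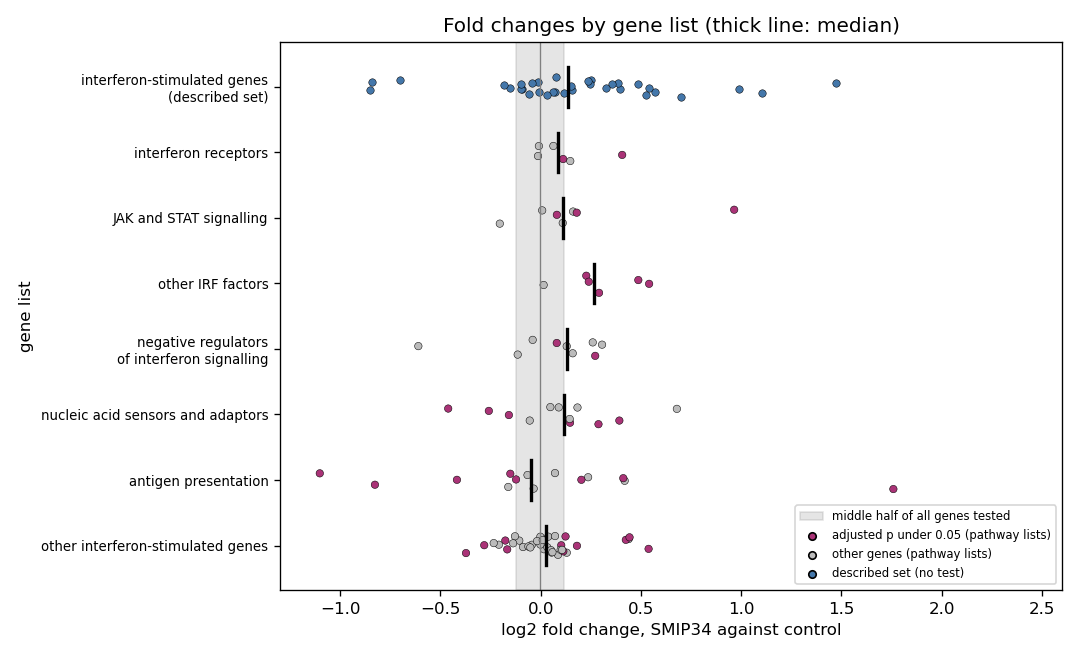
Log2 fold change of every tested gene of the 40 members and of 7 pathway lists, with the median of each as a thick line and the range between the quartiles of all tested genes as a gray band. The IRF factors have the highest median of the pathway lists, 0.27, and antigen presentation the lowest, -0.05.

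The remaining lists went both ways. Of 9 negative regulators 2 rose, led by IRF2BP2, a corepressor, at 0.27 on the log2 scale (adjusted p = 2.62e-06 in edgeR). Of 12 tested sensors and adaptors 3 rose and 3 fell, beside 17.4% and 17.2% of all genes. TICAM1, the adaptor of TLR3, rose by 0.39 (adjusted p = 7.95e-06 in edgeR), and TMEM173 (STING) fell by 0.46 (adjusted p = 0.0107 in edgeR), a call lost without SMIP34 replicate 2 (0.0543) or 3 (0.0505). Of 14 tested antigen presentation genes 3 rose and 5 fell. The largest value, HLA-B at 1.76 (adjusted p = 0.0206 in edgeR), came from SMIP34 replicate 3, at 12.2 CPM beside 1.15 to 1.96 CPM in the other libraries, and was -0.21 without it. PSMB9 fell by 1.10 (adjusted p = 0.0108 in edgeR), but control replicate 2 was at 5.20 CPM beside 1.80 and 1.64, and without it the value was -0.33 (adjusted p = 0.398). Of 36 other tested ISGs 7 rose and 4 fell, counts near or under the shares of 17.4% and 17.2% over all genes, with a median of 0.02. ZC3HAV1, an antiviral zinc finger protein, rose, at 53.9 ± 1.18 in control and 78.2 ± 2.24 CPM in treated libraries (SD, n = 3 each), 0.54 on the log2 scale (adjusted p = 7.88e-11 in edgeR), and TNFSF10 (TRAIL) fell by 0.37 (adjusted p = 0.00173 in edgeR).

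Markers of other cell types were low in every library. Leukocyte markers summed to 0.866 to 1.55 CPM in control and 1.16 to 2.23 CPM in treated libraries, with CD3E, MS4A1 and NKG7 at 0 throughout and 5 of 8 with a count. Fibroblast and endothelial markers summed to 3.95 to 4.86 and 4.83 to 5.41 CPM, with all 8 having a count. Among these COL1A1, a collagen chain, was at 2.96 ± 0.218 and 4.19 ± 0.346 CPM (SD, n = 3 each), 0.50 on the log2 scale (adjusted p = 0.0151 in edgeR), and is named after its values were seen. Their part in the results was not tested. In bulk RNA, more cells with a transcript and more transcript per cell cannot be told apart.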

How the data were processed

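RNA from 3 control and 3 SMIP34-treated (20 µM, 24 h) HEC-1-A samples was compared, grouped by the labels. Per the file headers, the authors made expected counts (fractional read counts) with featureCounts 1.5.0-p1 on exons of the UCSC hg19 annotation, using strand and mapping quality of at least 2, and split reads with several places or genes into fractions, so 6.31 to 7.43% of values were not whole and genes with near copies are uncertain. No normalization had been applied. The submitters' processing notes name bcl2fastq, HISAT2, SAMtools and featureCounts, while the methods of the study name tophat2, HTSeq and DESeq2. The labels name library kits of different makers.

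Counts were rounded, 13408 of 23228 genes were kept by filterByExpr, and the groups were tested in edgeR 4.0.16 (R 4.3.3) by quasi-likelihood, with TMM scaling (factors 0.988 to 1.01) and Benjamini-Hochberg adjustment. Standard errors came from the F statistic, and log2 CPM used a prior count of 2. Calls needed an adjusted p under 0.05, and also an absolute log2 fold change above 0.5 where said. Alternatives were DESeq2 1.42.0, limma 3.58.1 voom, other scalings, no filter, the legacy method, the replicate block, loess offsets on exon length (span 0.3), 2 other member sets, and leaving out each library. Libraries of a group differed by more than counting noise (chi-square per gene 1.89 to 3.26), so none was merged. On simulated data for this comparison (13408 genes), 97 of 100 genes changed by 0.5 and 100 of 100 changed by 1 on the log2 scale were recovered. Recovered means an adjusted p under 0.05 with the right sign, without the fold limit. The changed genes were drawn only from genes with ample counts, and the median dispersion was used for every gene. These rates therefore do not cover members with few counts, such as IFITM1, IFITM2, IFI27 and IFI44L.

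The members and gene lists were chosen with earlier results of these data known. Values per library are given for IFIT2, RSAD2, members of at least 1 CPM with an absolute log2 fold change of at least 0.5, and the 5 highest per kilobase. Of the pathway lists, the extremes of each list past the adjusted p, the receptors, STAT2, IRF9, IRF1, IRF7 and ligands with a count are named, and 1 further gene of this rule is not reported here. Promoter windows are from RefSeq (GRCh38.p14), and no coordinates were converted between builds.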

Additional observations from a re-analysis of the deposited data

How the results depend on the processing

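The median log2 fold change of the members (0.13) was 0.15 with library size only, 0.12 with no filter, 0.10 with length offsets, 0.10 without IFIT2 and RSAD2, 0.062 over the 21 tested members with whole counts in every library, and 0.10 to 0.17 without each library in turn. Members called lower past both limits (2) were 1 with library size only, 1 with no filter, 1 with length offsets and 0 with DESeq2, and 0 to 2 without each library. Members lower at the adjusted p (5) were 2, 2, 1 and 0 under these settings, 3 with whole counts only, and 0 to 4 without each library. With whole counts only, 2 members were higher past both limits and 7 at the adjusted p. Fewer genes are in that set by construction; for the other settings the cause was not tested. Over all genes, 148 to 219 were higher and 170 to 255 lower past both limits under the alternative fits. At the adjusted p, 3586 to 4706 were called in either direction. In the pathway lists, DESeq2 called 7 genes lower (12), and genes higher past both limits (4) came to 7 without control replicate 1 and 3 to 7 without each library.

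Same-numbered libraries had deviations correlated at -0.03, 0.03 and -0.01, and the libraries were treated as unpaired. Under the replicate block, 7 members were higher and 1 was lower past both limits, 2 were lower at the adjusted p, and 453 genes in all were past both limits, against 444. The sign changed for IFITM3 (0.018 with length offsets), for IFNGR1 (0.0093 with library size only, 0.035 with length offsets, and -0.066 to 0.043 without each library), for IL10RB (0.0052, 0.039 and -0.026 to 0.0042) and for HLA-B (-0.21 without SMIP34 replicate 3, and up to 2.22 without another library). Of 168 alternative values of the 12 named members, 164 moved by less than the spread between replicates. The depth limits ligands and the members under about 1 CPM.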
